A study of Mus musculus with 4 samples.

Results

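The genes described here are the DNA-binding subunits of NF-kappaB and the adaptors and ubiquitin ligases that connect its receptors to them. The 10 members were listed by gene symbol: Rela, Rel, Relb, Nfkb2, Map3k14, Traf1, Traf2, Traf3, Birc2 and Birc3. They were measured by every probe set that the platform annotation gives to one of these symbols alone, which came to 13 probe sets of 9 genes, among 45037 probe sets and 18193 named genes in all. Traf3 had no such probe set and was not analysed here.

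Each of the 4 arrays held RNA of 2 kinds of mouse cell. One was Kupffer cells, which are macrophages resident in the liver, sorted as CD45+ CD11b+ cells carrying the macrophage surface antigen that Adgre1 encodes, from female C57BL/6 mice of 12 weeks. The other was SL4, a mouse colon carcinoma line of the same strain. The Kupffer cells were wild-type or Clec4n-/-, that is, without the receptor Dectin-2, while SL4 was the same in all groups. The 4 groups were wild-type separate, knockout separate, wild-type co-culture and knockout co-culture, with 100000 cells of each kind cultured for 8 hours, and each group had 1 array. In the separate groups the RNAs of the 2 cultures were mixed, so no array tells which cell type a signal came from. No difference within a genotype or within a culture condition has a replicate check.

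NF-kappaB works through 2 arms. In the canonical arm, receptors of inflammatory signals activate a kinase complex that removes IkappaB proteins, and dimers holding RelA or c-Rel then enter the nucleus. In the non-canonical arm, a few receptors of the TNF family stabilise the kinase NIK, encoded by Map3k14, which leads to processing of the Nfkb2 product p100 to p52, the partner of RelB. In resting cells a complex of TRAF2, TRAF3 and the cIAP ligases, encoded by Birc2 and Birc3, keeps NIK protein low. TRAF2 and the cIAPs also serve the canonical arm downstream of TNF receptors, so they are described as shared adaptors. The arrays measured RNA and not protein, nuclear entry or p100 processing.

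Upstream sequences were searched for the binding motif of the family, since several of these genes are known NF-kappaB targets. The sequences are shown for the members whose ratios are compared most closely and for Rel. They come from RefSeq on build GRCm38.p6 and run 5′ to 3′ over the 250 bases before an annotated start of transcription. Capitals mark matches to the 10-base kappaB consensus on either strand, with overlapping matches merged.
Nfkb2, start 1, chr19:46304487-46304736, plus strand: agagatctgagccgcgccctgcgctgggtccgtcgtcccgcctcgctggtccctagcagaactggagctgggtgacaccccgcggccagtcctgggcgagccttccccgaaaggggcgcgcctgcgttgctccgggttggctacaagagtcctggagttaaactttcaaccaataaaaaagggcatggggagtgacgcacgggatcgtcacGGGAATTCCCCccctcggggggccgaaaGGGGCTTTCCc
Nfkb2, start 3, chr19:46305680-46305929, plus strand: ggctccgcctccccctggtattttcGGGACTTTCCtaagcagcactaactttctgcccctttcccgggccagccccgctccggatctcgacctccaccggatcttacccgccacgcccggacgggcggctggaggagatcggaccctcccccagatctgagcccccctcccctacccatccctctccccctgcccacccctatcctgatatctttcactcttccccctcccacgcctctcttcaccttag
Rel, chr11:23770970-23771219, minus strand: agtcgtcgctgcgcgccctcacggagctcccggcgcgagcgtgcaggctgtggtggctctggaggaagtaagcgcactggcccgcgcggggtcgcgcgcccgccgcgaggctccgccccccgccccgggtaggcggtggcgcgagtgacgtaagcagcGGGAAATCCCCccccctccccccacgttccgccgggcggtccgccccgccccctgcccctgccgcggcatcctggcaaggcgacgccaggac
Traf1, chr2:34961773-34962022, minus strand: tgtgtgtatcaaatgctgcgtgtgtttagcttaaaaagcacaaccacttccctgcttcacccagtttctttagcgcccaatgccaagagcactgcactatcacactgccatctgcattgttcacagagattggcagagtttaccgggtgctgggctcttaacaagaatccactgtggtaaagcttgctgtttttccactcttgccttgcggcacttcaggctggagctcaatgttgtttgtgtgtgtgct
Rela, chr19:5637291-5637540, plus strand: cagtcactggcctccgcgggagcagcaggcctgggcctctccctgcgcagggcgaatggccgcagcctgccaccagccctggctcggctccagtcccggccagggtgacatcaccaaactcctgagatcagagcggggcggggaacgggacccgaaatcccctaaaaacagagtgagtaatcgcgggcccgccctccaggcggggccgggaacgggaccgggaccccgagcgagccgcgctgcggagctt

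The promoter table held 9 of the 10 members with 12 annotated starts, and not Relb. Nfkb2 had the most matches: its start 1 had 2 separate ones, at -39 to -29 and at -11 to -2 from the start, and starts 2 and 3 had 1 each, at -236 to -227 and at -225 to -216. Rel had 1 at -92 to -82 and Traf3 had 1 at -10 to -1. Rela, Map3k14, Traf1, Traf2, Birc2 and Birc3 had no match in these windows. The consensus occurred in 3.90% of all 32851 promoter windows of this length. The shorter motif GGNNTTTCC, which overlaps the consensus, was found on either strand in the windows of Rel, Nfkb2 starts 1 and 3 and Traf3, and in 4.93% of all windows. GGGCGG, the Sp1 box, was found for Rela, Rel, Nfkb2 starts 2 and 3, Map3k14, Traf3 and Birc2 start 2, and in 32.7% of all windows. A match is a string of letters and not evidence of binding.

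**Figure D1:**
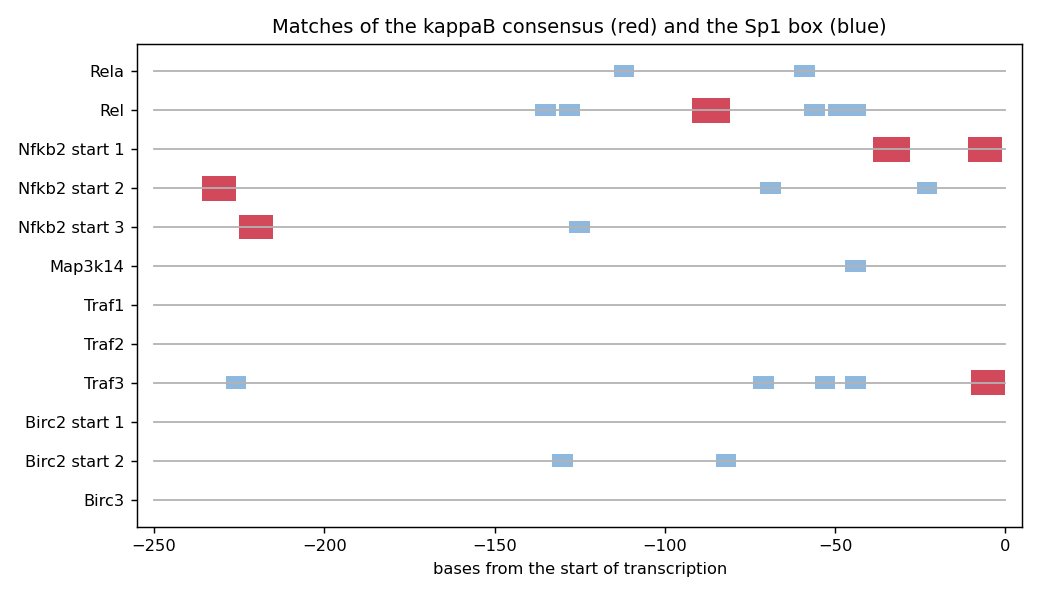
Positions of motif matches in the 250 bases before each annotated start of the members, with the horizontal axis in bases from the start. Wide red blocks are kappaB consensus matches and narrow blue blocks are GGGCGG matches on either strand. Nfkb2 start 1 carries 2 red blocks close to the start, and the lines of Traf1, Traf2, Birc2 start 1 and Birc3 carry none of either kind.

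After MAS5 scaling the arrays had similar median signals, between 72.5 and 78.4. The trimmed mean was 497 or 498 in each, which the scaling fixes, so it does not measure RNA input. Signals are linear MAS5 intensities without a unit, and the floor under which no ratio was read was 76.1, the median of all values. By its brighter probe set Clec4n itself lay under the floor in all 4 arrays, at 14.2 and 17.6 in the wild-type ones and 8.29 and 8.19 in the knockout ones. It therefore gives no check of the labels. Among 20 Kupffer cell and macrophage markers 9 were above the floor in all 4 arrays. These were Cd5l, Csf1r, Cd68, Lyz2, C1qb, Laptm5, Cd53, Tyrobp and Fcer1g. The other 11, among them Clec4f, Vsig4, Timd4, Adgre1 and Ptprc, lay under it in all 4. Among 12 epithelial markers only Epcam and Cldn3 were above it in any array. Of 23 markers of T and NK cells, B cells, neutrophils, endothelium and hepatocytes, 3 were above it, all of hepatocytes, with Alb between 324 and 347.

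In co-culture the RNAs of the non-canonical subunits Relb and Nfkb2 and of the adaptor Traf1 were higher than in separate culture in both genotypes, while Rela was almost level. Of the 10 members, 3 were at least 2-fold higher in wild type and 3 in knockout, and 0 were 2-fold lower in either. The same 3 genes made up both counts. Among all genes, 0.701% of 10417 were at least 2-fold higher in wild type and 0.67% of 10444 in knockout. Without a floor, or with one at 38.0, 5 members were past 2-fold in knockout, with Rel and Map3k14 added, and 4 in wild type, with Rel added. Taken as the median over a gene's probe sets, 1 member was past it in wild type.

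**Figure D2:**
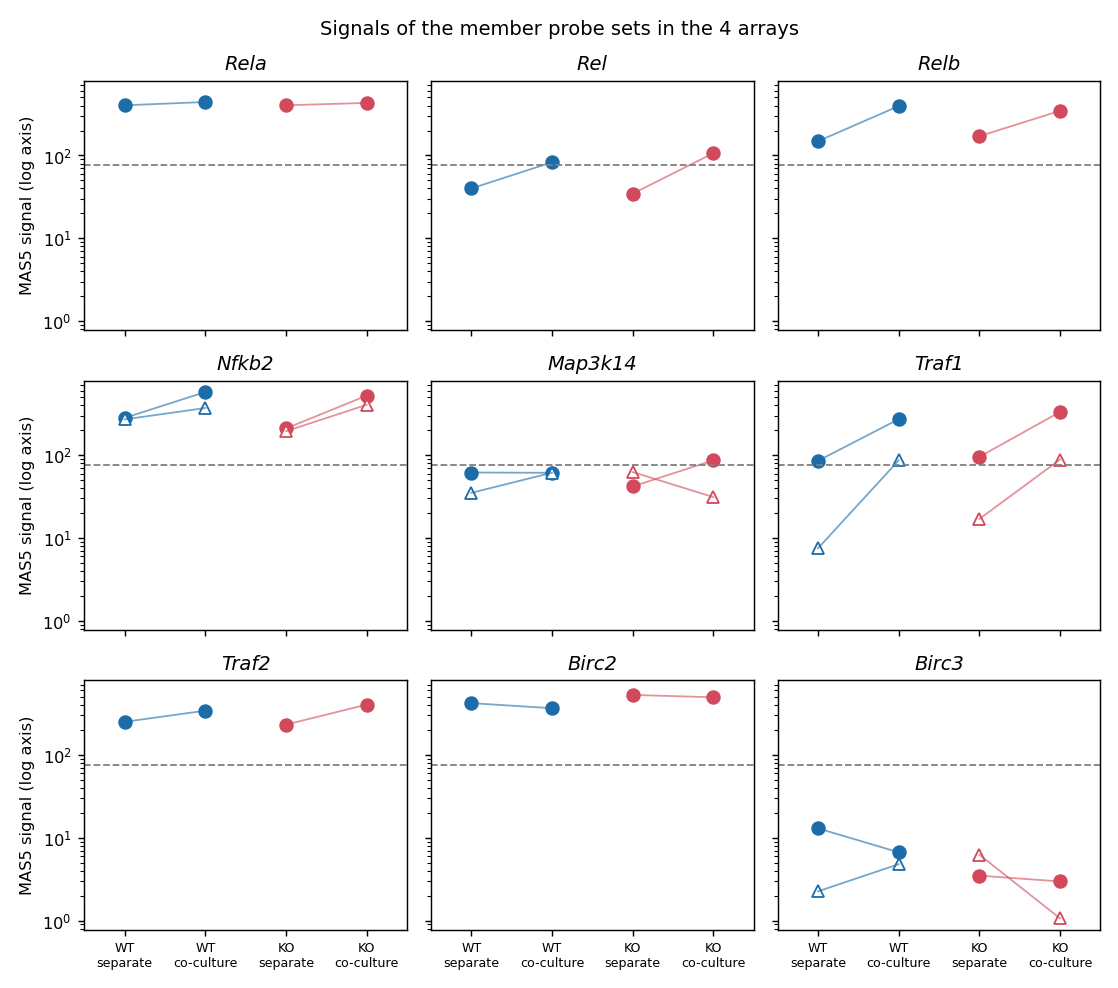
MAS5 signal (log axis) of the 13 member probe sets in the 4 arrays, 1 panel per gene, with wild type in blue and knockout in red. Filled circles are the brighter probe set, open triangles the second one, lines join the arrays of 1 genotype and the dashed line is the floor of 76.1. Relb, Nfkb2 and Traf1 rise from separate to co-culture in both genotypes, and Birc3 lies under the floor throughout.

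Both genotypes were also put in one fit of culture and genotype across all genes, in which the error is how far the co-culture ratios of the genotypes disagree. It has 1 residual degree of freedom per gene, moderated by limma over 10637 genes with 11.1 prior degrees of freedom. In this fit 8 members could be placed, of which Rel and Map3k14 entered through some arrays only. With Benjamini-Hochberg adjustment over all genes, 3 of the 10 members rose in co-culture, namely Traf1, Relb and Nfkb2, and 0 fell. Of all genes fitted, 2.55% rose and 3.83% fell. Fewer cells of a type and less RNA per cell cannot be told apart in such mixed RNA.

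RelA, the main activating subunit of the canonical arm, is encoded by Rela. Its signal was 403 in wild-type separate culture, 441 in wild-type co-culture, 403 in knockout separate culture and 430 in knockout co-culture. Both co-culture arrays were slightly above both separate arrays, and the share of all genes that do so was not counted. The ratios were 1.10-fold for wild type and 1.07-fold for knockout. The fitted log2 ratio was 0.11 ± 0.16 (SE), with a 95% interval from -0.22 to 0.45, and did not pass the test (limma, adjusted p = 0.745).

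Rel encodes c-Rel, the canonical subunit best known from lymphocytes and macrophages. It read 40.0 and 34.7 in the separate arrays of wild type and knockout, both under the floor, and 82.8 and 106.5 in the co-culture arrays, both above it. The gene was dim throughout and entered the fit only through its co-culture arrays. Its ratios are lower bounds, log2 0.12 for wild type and 0.49 for knockout. The fitted log2 ratio on floored signals was 0.30 ± 0.18 (SE) with an adjusted p of 0.397 in limma. With the floor at 38.0 it was 1.27 with an adjusted p of 0.00687, so the call for Rel turns on the floor.

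Relb encodes RelB, the subunit that pairs with p52 in the non-canonical arm. Its signal was 148 in wild-type and 171 in knockout separate culture, against 394 in wild-type and 345 in knockout co-culture. Every co-culture value was at least as high as 2 times either separate value. The ratio was 2.65-fold for wild type and 2.02-fold for knockout, the second just past the 2-fold line. Over both genotypes the log2 ratio was 1.21 ± 0.19 (SE), with an interval from 0.79 to 1.63 and an adjusted p of 0.00263 (limma). By size of that ratio Relb stood at place 41 from the top of 10637 genes.

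Nfkb2 encodes p100, which holds RelB in the cytoplasm until it is processed to p52. By its brighter probe set the signal was 281 in wild-type and 210 in knockout separate culture, and 577 and 522 in the co-cultures. The ratio was 2.05-fold for wild type and 2.49-fold for knockout. The second probe set, of the kind that may share sequence with other transcripts, read 270 and 194 apart and 370 and 405 together. It gave 1.37-fold for wild type and 2.08-fold for knockout. All 4 ratios pointed up, and the second probe set gave the smaller ratio in both genotypes, more so in wild type. The fitted log2 ratio of the brighter one was 1.18 ± 0.17 (SE), with an interval from 0.81 to 1.55, an adjusted p of 0.00132 (limma) and place 43 of all genes.

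When limma's prior took no account of the mean signal, which left 45 genes called in place of 678, Relb and Nfkb2 missed the threshold at adjusted p = 0.0753 and 0.0634. The ratios are the same in that fit. Traf1 was the 1 member still past it.

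Map3k14 encodes NIK, the kinase that starts the non-canonical arm and is controlled mainly through its protein. One probe set read 61.7 and 61.2 in wild-type separate and co-culture, and 41.9 and 86.6 in those of the knockout. The other gave 35.1 and 61.3 for wild type, then 62.5 and 31.2 for knockout. Of these 8 values 1 lay above the floor, and the probe sets moved in opposite directions in knockout. No wild-type ratio can be given, and the knockout ratio of at least 1.14-fold rests on that 1 value.

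**Figure D3:**
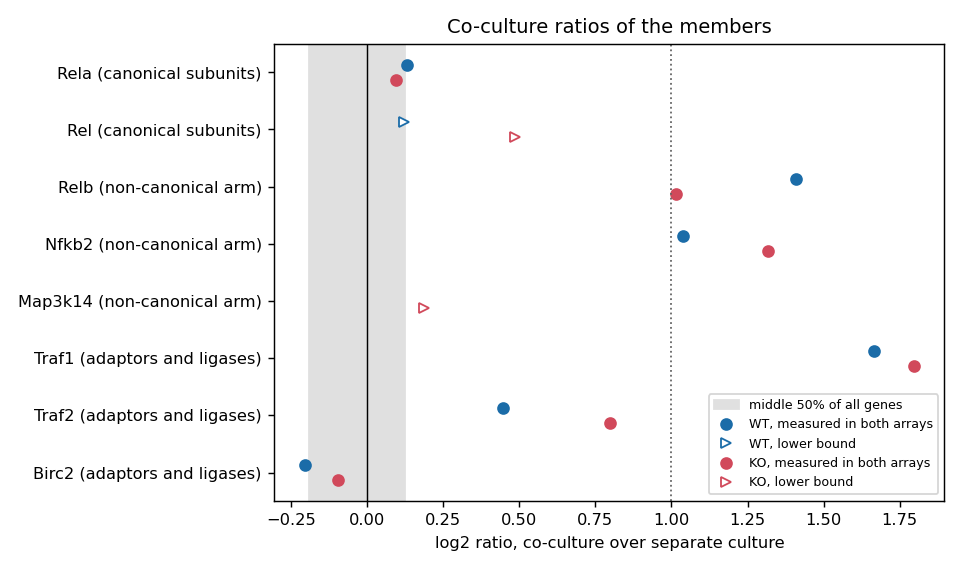
Log2 ratio of co-culture over separate culture for the 8 members with a ratio, in wild type (blue) and knockout (red), labelled by arm. Open triangles are lower bounds, the dotted line is 2-fold and the grey band spans the middle 50% of all genes. Relb, Nfkb2 and Traf1 lie to the right of the dotted line in both genotypes, and Rela lies close to the edge of the grey band.

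Among the subunits, the 2 genes of the non-canonical dimer rose and Rela did not pass the test. The log2 ratio of Relb exceeded that of Rela by 1.28 in wild type and 0.92 in knockout, and the interval of the mean difference ran from 0.56 to 1.64. By its brighter probe set Nfkb2 exceeded Rela by 0.90 and 1.22, with an interval from 0.56 to 1.56. By the second Nfkb2 probe set the log2 ratio was 0.45 in wild type and 1.06 in knockout, against 0.13 and 0.10 for Rela. Between Relb and Nfkb2 the difference was 0.37 in wild type and -0.30 in knockout, and its interval from -0.53 to 0.60 includes 0. These intervals take the errors of 2 genes as independent, and the pairs were chosen after their values were seen. Arm against arm, the contrast therefore rests on Rela alone on the canonical side, since Rel and Map3k14 have only lower bounds and no median over an arm is given. On the signals as deposited, without a floor, the log2 ratio of Rel was 1.05 in wild type and 1.62 in knockout, the latter above both Relb and Nfkb2. Map3k14 without a floor gave 1.05 in knockout by its brighter probe set and a negative value by the other. Of the 3 adaptors and ligases with measured ratios, Traf2 was the middle one, at log2 0.45 in wild type and 0.80 in knockout. Traf1 lay above it and Birc2 below 0 in both genotypes, and the median over all genes was -0.02 in both.

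Traf1 encodes an adaptor that lacks the RING domain of its relatives and binds TRAF2 and the cIAPs. Its brighter probe set read 85.5 in wild-type and 95.5 in knockout separate culture, close above the floor, and 271 and 332 in the co-cultures. The ratio was 3.17-fold for wild type and 3.47-fold for knockout, the highest of the members in each. The fitted log2 ratio was 1.73 ± 0.19 (SE), with an interval from 1.32 to 2.14, an adjusted p of 0.000162 (limma) and place 15 from the top of all genes. Its second probe set was dim, at 7.53 and 17.0 apart and 86.4 and 88.6 together. The second one was above the floor only in co-culture, so its ratios are lower bounds, 1.14-fold for wild type and 1.16-fold for knockout. Since the separate signals of the brighter probe set lie near the floor, a floor at 152 brings its log2 ratios down to 0.83 in wild type and 1.12 in knockout.

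Traf2 encodes the adaptor that brings the cIAP ligases to receptors of the TNF family. Its signal was 250 in wild-type and 231 in knockout separate culture, and 340 and 403 in the co-cultures. The ratios were 1.36-fold for wild type and 1.74-fold for knockout. The fitted log2 ratio of 0.62 ± 0.18 (SE) had an interval from 0.22 to 1.02 and an adjusted p of 0.0689 (limma), which misses the threshold. Over 8 alternatives the adjusted p ranged from 0.0218 to 0.140, and 4 of them passed it. Traf2 stood at place 162 of all genes.

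Birc2 and Birc3 encode cIAP1 and cIAP2, the ubiquitin ligases of the complex that removes NIK. The Birc2 signal was 420 in wild-type and 527 in knockout separate culture, and 364 and 494 in the co-cultures. Its ratio was 1.15-fold lower in wild type and 1.07-fold lower in knockout. In the fit the log2 ratio was -0.15 ± 0.15 (SE), with an interval from -0.48 to 0.18 and an adjusted p of 0.650 (limma). Birc3 read between 2.97 and 12.97 by one probe set and between 1.07 and 6.24 by the other. All 8 values of Birc3 lay under the floor, so it has no ratio and was not in the fit.

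The adaptors and ligases thus spread widely in their co-culture ratios. Traf1 exceeded Traf2 by 1.22 on the log2 scale in wild type and 1.00 in knockout, with an interval of the mean difference from 0.53 to 1.68. Traf1 exceeded Birc2 by 1.87 and 1.89. Traf2 exceeded Birc2 by 0.65 and 0.89, with an interval from 0.25 to 1.29. These pairs share genes and were also chosen after their values were seen.

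The comparison of genotypes sets knockout against wild-type Kupffer cells, in RNA mixed with that of SL4, which had 1 genotype. A change in Kupffer cells alone could appear smaller in such mixed RNA. No member was 2-fold apart between knockout and wild type: 0 of the 6 with a ratio in separate culture and 0 of the 8 in co-culture. Over all genes, 0.203% of 10362 were 2-fold apart in either direction in separate culture and 0.24% of 10399 in co-culture. The counts of 0 are near these shares and do not show whether the members depend on Dectin-2. In the fit 0 of 8 members passed for genotype (limma), against 3 of 10637 genes or 0.0282%, and 1 member and 9.49% of all genes had an unadjusted p under 0.05.

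That member was Birc2, which was higher in knockout at 1.26-fold in separate culture and 1.35-fold in co-culture. Its genotype log2 ratio was 0.38 ± 0.15 (SE), with an adjusted p of 0.449 (limma). Nfkb2 was lower in knockout separate culture by both probe sets, at 1.34-fold and 1.39-fold, and in co-culture they pointed apart at log2 ratios of -0.14 and 0.13. For Relb the genotype log2 ratio was 0.01, with an interval from -0.42 to 0.43.

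The difference between the co-culture ratios of the genotypes has no error of its own here and was not tested. On the log2 scale, the knockout ratio minus the wild-type ratio was -0.39 for Relb, 0.28 for Nfkb2, 0.13 for Traf1, 0.35 for Traf2, 0.11 for Birc2 and -0.04 for Rela. The signs were mixed among the 3 genes that rose.

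**Figure D4:**
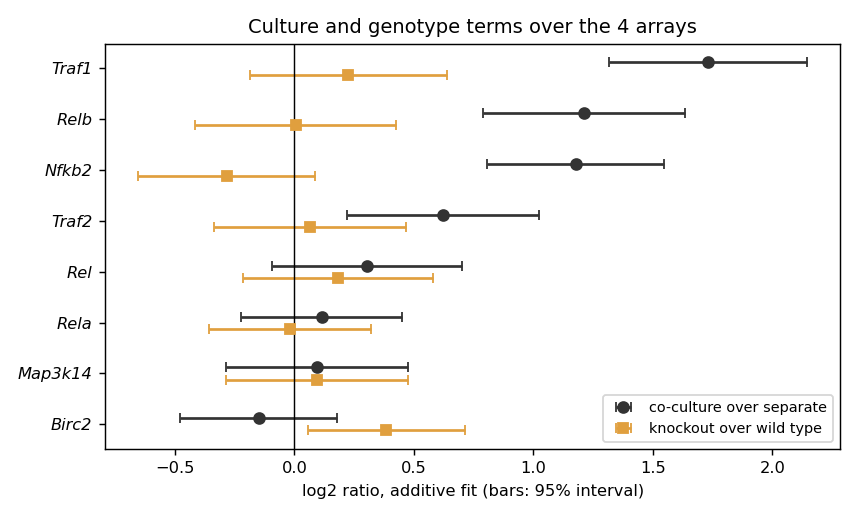
Log2 ratios of the 8 fitted members from the additive fit over 4 arrays, for co-culture over separate culture (black circles) and knockout over wild type (orange squares), with 95% intervals. Rel and Map3k14 rest on floored signals. The culture intervals of Traf1, Relb, Nfkb2 and Traf2 lie above 0, and of the genotype intervals that of Birc2 alone excludes 0, before adjustment over genes.

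Macrophage markers were set beside these results. The summed signal of the 20 Kupffer cell and macrophage markers was 2077 and 2374 in the separate arrays of wild type and knockout and 2493 and 2408 in the co-cultures. Of the 9 in the fit, C1qb, a complement component, rose and 0 fell. The median log2 ratio of these 9 was 0.26 in wild type and 0.29 in knockout, above the -0.02 of all genes. The part of the macrophage markers in the results for Relb, Nfkb2 and Traf1 was not tested. Of 5 mesenchymal markers in the fit 2 fell, Col3a1 and Acta2. The median log2 ratio of these 5 was -0.55 in wild type and -0.38 in knockout. The part of the mesenchymal markers in the results for the members was not tested either.

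Other genes of the pathway were taken from 5 lists of 65 symbols, of which 60 had a probe set and 45 were fitted. Of the 45, 8 rose and 2 fell in co-culture, and 7 of the 8 were IkappaB proteins or brakes of the pathway. The shares over all genes fitted were 2.55% risen and 3.83% fallen.

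Among 14 fitted genes of that list, 7 rose and 1 fell, and the median log2 ratio was 0.39 in wild type and 0.34 in knockout. Nfkbia, the classical inhibitor that NF-kappaB itself induces, went from 2041 and 1966 in wild-type and knockout separate culture to 6938 and 7114. Bcl3, a nuclear IkappaB protein that binds p52 and p50 dimers, was 4.54-fold higher in wild type and at least 5.79-fold higher in knockout. Nfkbiz, another nuclear IkappaB protein, had fitted log2 ratio 2.19, and Tnfaip3, the deubiquitinase A20, 2.15. Tnfaip3 read 72.8 in wild-type separate culture, under the floor, so its fitted ratio rests partly on a floored signal. Pdlim2, which promotes degradation of nuclear RelA, was the gene that fell, at 602 and 549 apart against 231 and 185 together. Otud7b, a deubiquitinase that acts on TRAF3, was bright and level at 3073 to 3168.

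In the canonical kinase complex and its adaptors, 1 of 20 fitted genes rose and 0 fell, not far from the shares over all genes. The median log2 ratios were 0.06 and 0.08, and none was 2-fold apart in either genotype. The one was Bcl10, an adaptor of the CARD9 and MALT1 complex, at 2717 and 2925 apart and 3617 and 3376 together, with a log2 ratio of 0.31 and adjusted p = 0.0219 (limma). Tab2, an adaptor of the kinase TAK1 and the brightest of the list, had a log2 ratio of 0.09. Nfkb1, Chuk, Ripk1 and Irak4 had no probe set under their symbol alone and were not analysed here.

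No fitted receptor of the non-canonical arm passed the test, and none of its ligands could be tested. Of 5 fitted receptors 0 rose and 0 fell, with median log2 ratios of -0.07 in wild type and 0.06 in knockout, and none had a 2-fold ratio. Over all genes fitted 2.55% rose and 3.83% fell, so 0 of 5 is near that share and sets the receptors apart from no other genes. Tnfrsf12a, the receptor of TWEAK, was between 3729 and 4035 in all 4 arrays, and Tnfrsf1b, TNF receptor 2, between 593 and 689. All 6 ligands on the array lay under the floor in every array, the highest value being 45.3 for Tnfsf13b, which encodes BAFF. Tnfsf12, which encodes TWEAK, had no probe set under its symbol alone.

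Of the ligands and receptors of the canonical arm, 6 of 12 were fitted, and all 6 were receptors or co-receptors. Il1r1, the interleukin 1 receptor, fell from 1257 and 1560 apart to 1048 and 1172 together, a log2 ratio of -0.34 with adjusted p = 0.0284 (limma). Tnfrsf1a, TNF receptor 1, was at 1075 and 1122 apart and 1297 and 1326 together, with adjusted p = 0.0838. Tnf, Il1a and Il1b lay under the floor in all arrays.

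**Figure D5:**
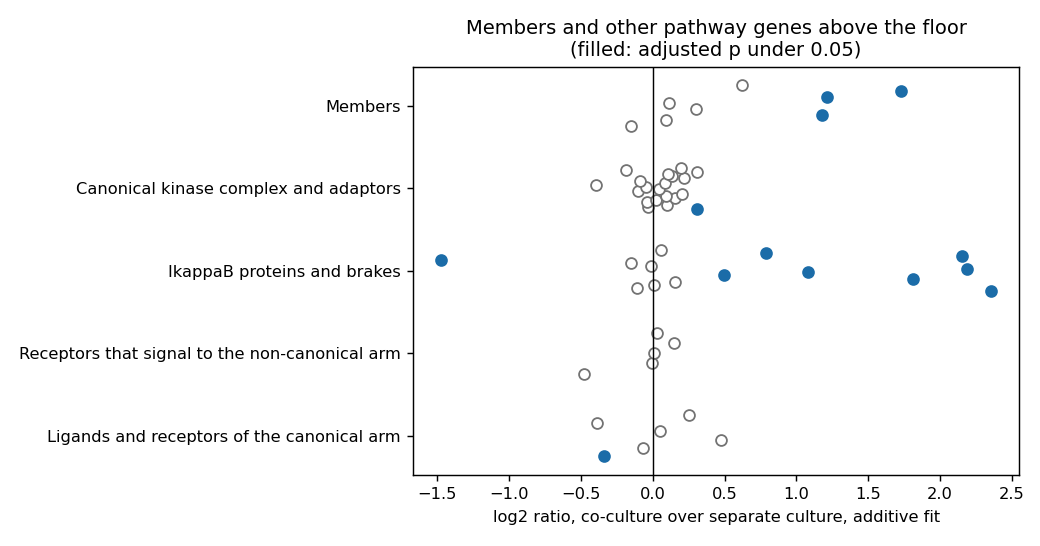
Fitted log2 ratios of co-culture over separate culture for the 8 fitted members and for the other pathway genes by list, 1 point per gene, filled where the adjusted p of limma was under 0.05. The filled points lie mostly among the members and the IkappaB proteins and brakes, and receptors of the non-canonical arm have none.

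The genes whose pair of co-culture ratios lay nearest to that of Relb were looked up among 9317 genes that were above the floor in all arrays and reached at least 2 times the floor in the brightest of them. By distance in log2 ratio they were Cxcl16, a chemokine anchored in the membrane, at 0.04, Syt7, a synaptotagmin, at 0.13, Micall2 at 0.16, Zhx2, a transcription repressor, at 0.17 and Slc11a1, a phagosomal metal transporter, at 0.21. Cxcl16 was 2.68-fold higher in wild type and 1.97-fold in knockout, from 95.3 and 118 apart to 255 and 233 together. The measure uses 2 ratios from 4 arrays and is a description.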

How the data were processed

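Per the submitters' processing notes, the authors made the deposited intensities by MAS5 in Affymetrix Expression Console 1.4. The values are linear signals, 1 per probe set and array, scaled per array, so a change in total RNA per cell cannot be seen. Amplified cDNA came from 20 ng of total RNA, per the labels.

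Signals were raised to a floor of 76.1, the median of all values, and log2-transformed. Each gene is represented by its brightest probe set on the mean log2 scale. A ratio is a lower bound if 1 of its arrays did not exceed the floor, and none is given if both did not. Ratios of different probe sets can be compressed to different degrees. Probe sets with 1 symbol numbered 34945.

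Culture and genotype were fitted additively with limma 3.58.1 in R 4.3.3 (eBayes with a trend on mean signal), over genes above the floor in at least 1 array, with Benjamini-Hochberg adjustment at 0.05. A true dependence on genotype counts as error in this fit. The labels do not say how many mice or cultures stand behind an array, and precision is limited by having 4 of them. The calculation was tested on simulated data. Counts use a 2-fold threshold.

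Members and lists were chosen with earlier results of these data known. All members are named. Of each other list, genes past 2-fold in both genotypes and the 2 brightest may be named, and further genes (Tnf, Il1a, Il1b, other genes under the floor, and the markers named) were chosen after their values were seen. Genotype counts over all genes and the fit's genotype term were added after seeing the data. Alternatives were the floor, the scaling, the choice of probe set, the fold threshold, the prior and the genes fitted.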

Additional observations from a re-analysis of the deposited data

How the results depend on the processing

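Of 147 values of single members under the alternatives, 0 reversed a called direction and 129 stayed on the same side of the threshold, or within the residual SD of the fit for a ratio in 1 genotype. The calls that changed were those of Relb, Nfkb2, Rel and Traf2 given with each gene. Without a floor or with one at 38.0, genes at least 2-fold higher numbered 155 in wild type and 128 in knockout, with 5 members in knockout, and genotype differences 90 in separate culture and 98 in co-culture. These pairs of counts are equal by construction. With the floor at 152, 46 genes were higher in wild type, and 6 and 3 differed by genotype in separate and co-culture. At 1.5-fold the counts were 345, 261, 289 and 311 in the same order of comparisons. As the median over probe sets, 1 member was higher in wild type, 13 genes differed by genotype in co-culture and 275 passed for culture. Without a trend in the prior 45 genes and 1 member passed for culture. For genotype, genes passing numbered 35 without a floor, 6 with the floor at 152, 14 with a common median, 90 among genes above the floor in all arrays, and 0 with quantile normalization, with the median over probe sets and without a trend. Beyond the values given here the cause was not tested. No array could be left out of the fit, since 3 arrays leave no residual degree of freedom. Dim signals limit what can be read for Rel, Map3k14 and Birc3.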
